A study of Mus musculus with 16 samples.

Results

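Retinal microglia without treatment were described from 4 RNA-seq libraries, those labelled day 0 in a series of 16. They were chosen by their label alone, and all 4 libraries carrying it were used. The cells were sorted by fluorescence from retinas of Iba1-EGFP mice, a strain whose EGFP follows the promoter of Aif1, the gene of the protein Iba1. All 4 libraries came from mice of 15 weeks, with no treatment and the same strain. Iba1 is made by every kind of macrophage, so the sort can also hold macrophages of vessels and of the borders of the tissue. The labels state neither the number of cells per library nor whether the libraries came from separate animals, so the spread below may be technical. The sample titles carry a number that replicates 1 and 2 share and another that replicates 3 and 4 share, and the labels do not state what it marks.

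Microglia are the resident macrophages of the retina. They live in its synaptic layers, survive on signals through the receptor CSF1R, sense nucleotides and neuronal ligands with fine processes, and clear debris and synapses with the help of complement. In the undisturbed tissue they are held in a state known as homeostatic, marked by purine receptors and lysosomal enzymes and shaped by TGF-beta. The transcription factor PU.1, made from Spi1, is required for the lineage. Around them lie rods, by far the most common cell of the mouse retina, with cones, bipolar, amacrine, horizontal and ganglion cells, Mueller glia and vessels, and a sort from dissociated retina can carry RNA of any of these.

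The promoters that frame the results are shown first, as the 250 bases before the RefSeq start of each gene in GRCm38.p6, 5′ to 3′ on the strand of the gene. Aif1 is shown because its promoter defines the sort, Cx3cr1 as a second marker of microglia, C1qb and Ctss as highly expressed microglial genes, and Sag as a gene of rods. They lie at chr17:35176053-35176302 (minus strand), chr9:120068297-120068546 (minus), chr4:136886201-136886450 (minus), chr3:95526536-95526785 (plus) and chr1:87803430-87803679 (plus). Capitals mark GAGGAA, the core bound by PU.1, and TAATCC, the core bound by the photoreceptor factor CRX, each on either strand, so that the reverse complements TTCCTC and GGATTA are marked too.
Aif1: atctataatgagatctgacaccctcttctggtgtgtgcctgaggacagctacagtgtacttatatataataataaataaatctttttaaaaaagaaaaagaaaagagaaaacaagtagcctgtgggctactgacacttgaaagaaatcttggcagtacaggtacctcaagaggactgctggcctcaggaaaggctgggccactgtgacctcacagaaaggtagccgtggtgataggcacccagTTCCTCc
Cx3cr1: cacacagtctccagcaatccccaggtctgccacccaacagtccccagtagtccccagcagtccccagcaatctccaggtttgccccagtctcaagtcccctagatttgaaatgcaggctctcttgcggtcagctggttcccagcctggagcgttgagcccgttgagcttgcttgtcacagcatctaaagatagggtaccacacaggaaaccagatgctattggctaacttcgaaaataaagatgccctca
C1qb: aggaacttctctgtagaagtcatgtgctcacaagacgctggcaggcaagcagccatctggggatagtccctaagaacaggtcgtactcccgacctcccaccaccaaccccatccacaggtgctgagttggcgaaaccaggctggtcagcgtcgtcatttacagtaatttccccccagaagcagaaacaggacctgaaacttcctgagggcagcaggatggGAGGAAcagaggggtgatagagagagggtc
Ctss: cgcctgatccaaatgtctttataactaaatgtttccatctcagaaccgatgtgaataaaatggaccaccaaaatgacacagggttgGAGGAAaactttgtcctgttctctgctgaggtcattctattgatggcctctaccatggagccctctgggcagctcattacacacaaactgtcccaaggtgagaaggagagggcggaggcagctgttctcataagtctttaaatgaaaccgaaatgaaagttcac
Sag: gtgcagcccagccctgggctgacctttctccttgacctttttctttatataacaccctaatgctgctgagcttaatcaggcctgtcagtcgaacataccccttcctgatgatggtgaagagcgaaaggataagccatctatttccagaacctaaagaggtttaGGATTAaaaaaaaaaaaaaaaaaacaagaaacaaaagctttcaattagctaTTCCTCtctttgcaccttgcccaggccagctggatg
The window of Aif1 holds 1 GAGGAA, on the opposite strand, next to the start. Those of C1qb and Ctss hold 1 each, and that of Cx3cr1 holds neither motif. The window of Sag holds 1 TAATCC and, without overlap, 1 GAGGAA. Among all 32851 RefSeq promoters of this length, 23.3% hold GAGGAA and 6.25% hold TAATCC. Of the 23 promoters matched to 18 of the 24 homeostatic genes, 7 hold GAGGAA (30.4%), as do 4 of 17 promoters of rod genes (23.5%). TAATCC is in 6 of the 17 promoters of 15 matched rod genes (35.3%) and in 1 of the 23 homeostatic ones (4.35%). The rod genes were not alone in this, since 2 of 7 Fc receptor promoters (28.6%), 1 of 8 Mueller promoters (12.5%) and 2 of 21 lysosomal promoters (9.52%) hold it too. GAGGAA is in 4 of the 7 Fc receptor promoters (57.1%), 9 of the 21 lysosomal ones (42.9%) and 2 of the 8 Mueller ones (25%). These matches describe letters and are no evidence of binding.

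Levels are given in FPKM, in which the fragments on a gene are divided by its length in kilobases and by the depth of the library, for 21856 protein-coding genes, and values in a series of 4 are in the order of replicates 1 to 4. The reads recovered from the table were 9593228, 10170217, 12949869 and 13761121. In a gene of 1 kb, 1 read was worth between 0.0727 and 0.104 FPKM. The floor was set at 3 reads, an approximate upper limit for a count of 0 and no hard maximum. In such a gene it was worth between 0.218 and 0.313 FPKM. Amplified reads that carry no molecular identifiers cannot be counted as independent molecules, so the floor covers counting error alone. Protein-coding genes took 89.3%, 76.9%, 86.3% and 89.2% of the reads, and 8 pseudogene copies of mitochondrial genes took 5.06%, 16.6%, 7.63% and 4.97%. The table lists each of the 37 mitochondrial genes at 0 throughout, so a value of 0 is reported here only as listed at 0.

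The transcriptome was led by secreted and lysosomal proteins of macrophages. Cst3, which encodes the secreted protease inhibitor cystatin C, had the highest level of any protein-coding gene in all 4 libraries, at 9133, 29522, 40979.6 and 36938 FPKM. It alone took 3.36%, 9.43%, 11.8% and 10.6% of the summed protein-coding FPKM. Replicate 1 was lowest and the other 3 lay within 1.5 times of each other. Ctss, the lysosomal protease cathepsin S, stood at 4156, 13416, 17572 and 18730.2 FPKM and ranked 3, 3, 2 and 2. C1qb, a chain of the complement recognition molecule C1q, stood at 2321, 5936, 9764 and 8794 FPKM and ranked 6, 4, 3 and 3. The order of libraries was nearly the same for these 3 genes, with replicate 1 lowest, replicate 2 next and replicates 3 and 4 highest.

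Among the 20 genes with the smallest mean rank were further genes of myeloid cells, such as Tyrobp. Others were not particular to myeloid cells, such as B2m, Tmsb4x and Fth1. Tyrobp, the signalling adaptor DAP12 that serves TREM2 and other receptors, stood at 1248, 3466, 5023 and 5171 FPKM. B2m, the light chain of class I molecules, stood at 1586, 3894, 6985 and 7439.5 FPKM, and Tmsb4x, an actin-binding peptide, at 2259.6, 5413, 8352 and 7268 FPKM. Apoe, the main lipid carrier of glia, was more even, at 2218, 1850.4, 2159 and 3657 FPKM, with replicate 4 highest. Ctsd, the protease cathepsin D, stood at 1275, 2037, 4417 and 4074 FPKM, and 34.4% of its exon bases are shared with the gene model Gm49369 on the same strand. Since the kit leaves strand unmarked, the level of any gene that shares exon bases with another, on either strand, is uncertain. The iron-storage gene Fth1, the C1q chains C1qa and C1qc and the receptor chain Fcer1g were also among the 20. So was a gene of rods, Gnat1, which ranked 2, 12, 28 and 28.

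**Figure D1:**
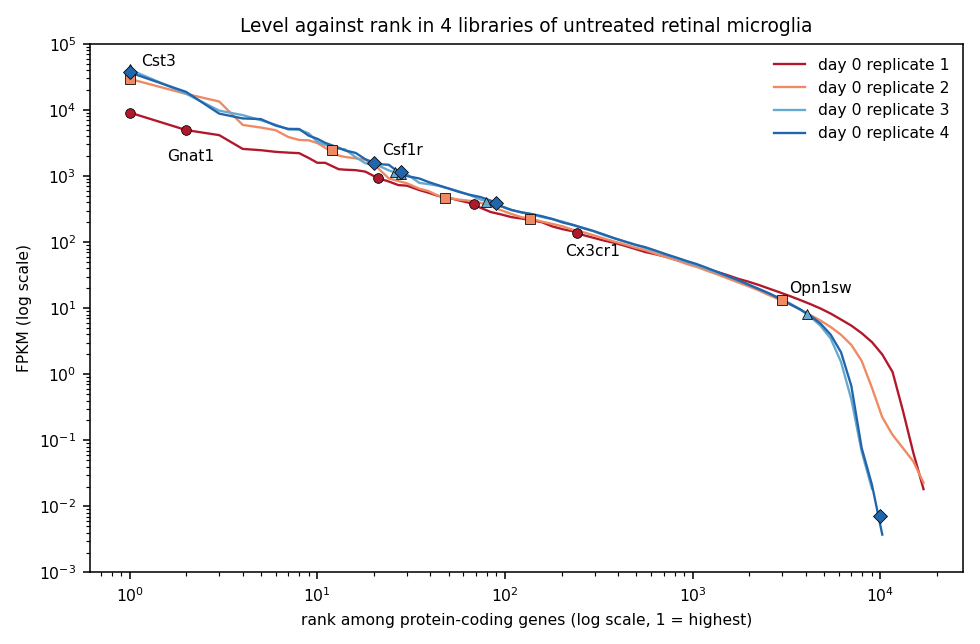
FPKM of protein-coding genes against their rank in each of the 4 day 0 libraries, both on log axes, with the positions of 5 genes marked per library (Opn1sw lies far down the curve of replicate 4, at 0.00710 FPKM). Cst3 is at rank 1 in every library, Csf1r lies between ranks 20 and 68, and replicate 1 starts lower and runs on to more genes at 1 to 10 FPKM.

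The 3 marker genes of microglia were found in every library, among the 256 highest protein-coding genes, so the data do not go against the label. Csf1r (ENSMUSG00000024621.16, chromosome 18, 61100598 to 61132149 in GRCm38), the receptor for the survival factors CSF1 and IL-34, stood at 378, 469, 1143 and 1587 FPKM, with ranks of 68, 48, 26 and 20. Of its exon bases, 15.1% are shared with Hmgxb3. Aif1 (ENSMUSG00000024397.14, chromosome 17, 35170991 to 35176068), which encodes Iba1, stood at 130.0, 357, 589.7 and 464 FPKM, with ranks of 256, 82, 56 and 76. Cx3cr1 (ENSMUSG00000052336.7, chromosome 9, 119901616 to 120069879), the receptor for the neuronal chemokine fractalkine, stood at 137, 226, 409 and 391 FPKM, with ranks of 241, 136, 79 and 89. All 3 were lower in replicates 1 and 2 than in replicates 3 and 4, and lowest in replicate 1. Their mean log2(FPKM + 1) was 7.57, 8.40, 9.35 and 9.37, or 8.67 ± 0.86 (SD, n = 4). In a bulk library, fewer cells of a type and less RNA per cell cannot be told apart.

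The 24 homeostatic genes were all at 1 FPKM or more in every library, against 4355 of 21856 protein-coding genes (19.9%), and 9 of them were at 100 FPKM or more in every library, against 205 of all. P2ry12, the ADP receptor that steers the processes of microglia, stood at 254, 700.3, 1223 and 1155 FPKM. Tmem119, a membrane protein used to tell microglia from other macrophages, stood at 139.5, 233, 462 and 636 FPKM. Gpr34, a receptor for lysophosphatidylserine, stood at 209, 811, 1088 and 965 FPKM. Replicate 1 had the lowest value for each of these 3 receptors and membrane proteins, and replicates 3 and 4 had the higher ones. The secreted glycoprotein gene Sparc (538, 838, 1468 and 1603 FPKM), the selectin ligand gene Selplg (156, 336, 668 and 637) and the lectin gene Siglech (117, 284, 399 and 561) were likewise higher in replicates 3 and 4. The lowest of the list were Adora3, an adenosine receptor, at 1.44 to 3.10 FPKM with 20.9% of its exon bases shared with other genes, and Sall1, the transcription factor that sets microglial identity, at 3.30, 14.8, 15.0 and 1.92 FPKM. Sall1 did not follow that order, since replicate 4 had its lowest value.

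Over the whole list, 21 of 24 homeostatic genes were lower in replicates 1 and 2 than in replicates 3 and 4, and 21 were lowest in replicate 1. Of all 21856 protein-coding genes, 1571 showed the first pattern (7.19%) and 1393 the second (6.37%). Among the 10575 genes averaging 1 FPKM or more, 1500 (14.2%) and 1293 (12.2%) did. Both patterns were frequent among 18 widely used cell genes too, at 11 (61.1%) and 10 (55.6%). The list took 4.59%, 11.9%, 15.5% and 14.4% of the summed protein-coding FPKM. Its mean log2(FPKM + 1) was 6.10, 7.13, 7.81 and 7.79, or 7.21 ± 0.80 (SD, n = 4), against 3.42, 2.78, 2.41 and 2.47 over the genes averaging 1 FPKM or more. The order of libraries was thus opposite for the list and for all such genes.

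**Figure D2:**
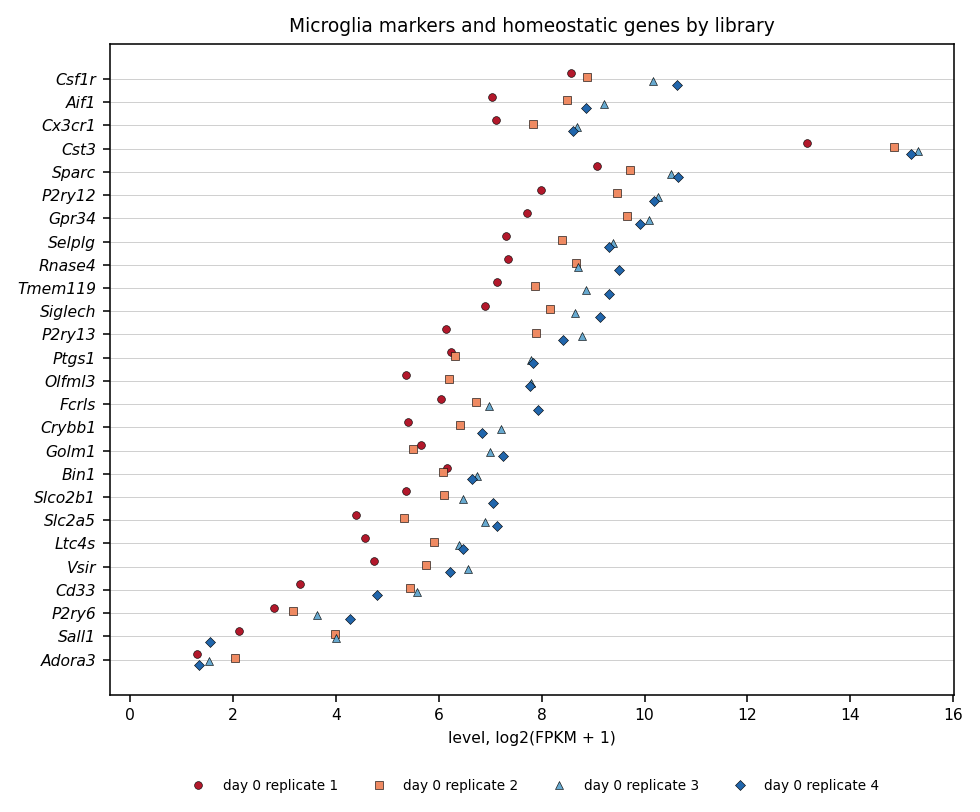
Levels of the 3 markers (top 3 rows) and 23 of the 24 homeostatic genes, as log2(FPKM + 1), with 1 point per day 0 library; the homeostatic genes are ordered by their mean FPKM, from Cst3 to Adora3. Replicate 1 lies furthest left for 20 of these 23 genes, and replicates 3 and 4 lie close together in most rows.

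Transcription factors of the lineage were far lower than these products, and 15 of 20 were at 1 FPKM or more in all 4 libraries. Spi1 (PU.1) stood at 37.3, 106, 203 and 124 FPKM, Irf8, its partner in microglial development, at 15.6, 33.9, 47.5 and 81.1 FPKM, and Irf5, a factor of inflammatory responses, at 20.4, 23.7, 50.1 and 68.8 FPKM, with 14.1% of its exon bases shared with Tnpo3. Mef2c, a factor of mature microglia, was more even, at 22.1, 15.2, 22.6 and 16.0 FPKM, and did not separate replicates 1 and 2 from replicates 3 and 4. Tfec was listed at 0 in 3 libraries and at 0.0352 FPKM in replicate 2.

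A list of growth factor and inhibitory receptors, which also holds cytokine receptors, was measured with ligands that other retinal cells make for some of them. Of its 16 genes, 13 were at 1 FPKM or more in all 4 libraries. Sirpa, the receptor for the signal CD47, stood at 82.1, 93.0, 136 and 197 FPKM, and Tgfbr1, the type I receptor for TGF-beta, at 26.2, 40.4, 41.4 and 98.0 FPKM. Cd200r1, the receptor for CD200, was at or near 0, with a highest value of 0.0234 FPKM in replicate 1. Of the 7 ligands, only Cd47 was at 1 FPKM or more in every library, at 21.4, 20.1, 12.2 and 19.0 FPKM. Cd200 stood at 45.5, 32.4, 14.6 and 0 FPKM, and Tgfb2 at 18.9, 10.1, 0 and 0 FPKM. Cx3cl1, the ligand of CX3CR1, stood at 13.3, 3.65, 0 and 0 FPKM, and Il34, a ligand of CSF1R, was listed at 0 in all but replicate 3 (0.0394 FPKM). The ligands were thus highest in replicate 1 for 6 of 7, against 8866 of 21856 protein-coding genes (40.6%), while the receptors Csf1r and Cx3cr1 were lowest there.

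Complement expression was concentrated in the C1q chains. C1qa, C1qb and C1qc, which lie side by side on chromosome 4, were all above 700 FPKM in every library, and their proportions were nearly constant, with C1qc at 0.297 to 0.362 and C1qa at 0.260 to 0.307 of the FPKM of C1qb. Tyrobp, on chromosome 7, was at 0.514 to 0.588 of C1qb. Itgb2, a chain of complement receptor 3, stood at 63.2, 138, 114 and 259.8 FPKM. Its partner chain Itgam stood at 42.8, 34.4, 91.1 and 147 FPKM, values that are uncertain because 68.7% of its exon bases are shared with Gm49368. C3, the central component of the cascade, was low, at 0.203, 2.89, 4.32 and 0 FPKM, and the cascade gene C4b had 2.72 FPKM in replicate 1 and no more than 0.0173 FPKM elsewhere. Of 12 complement genes, 8 were at 1 FPKM or more in all 4 libraries.

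Fc receptors and the lysosome were expressed as broadly as the homeostatic genes. All 6 Fc receptor genes were at 1 FPKM or more in every library and lower in both replicates 1 and 2. Fcer1g, the shared signalling chain, stood at 659, 1947, 2962 and 2446 FPKM, and Fcgr3, a low-affinity receptor for IgG, at 202, 462, 1000.1 and 814 FPKM. All 22 genes of the lysosome and cathepsins were at 1 FPKM or more in every library, and 14 were at 100 FPKM or more. Of the 22, 19 were lower in both replicates 1 and 2. That order also held for 11 of 18 widely used cell genes (61.1%) and for 7.19% of all protein-coding genes. Lyz2, which encodes lysozyme, stood at 406, 797, 1059.7 and 2236 FPKM. Lgmn, an asparagine endopeptidase of the lysosome, stood at 391, 593, 1167 and 897 FPKM. Replicate 4 was highest for Lyz2 and replicate 3 for Lgmn. The list took 3.63%, 7.70%, 10.5% and 11.2% of the summed protein-coding FPKM.

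Purine signalling beyond P2ry12 was less uniform. Of 10 purine receptors and ectonucleotidases, 5 were at 1 FPKM or more in every library. Entpd1 (CD39), which degrades extracellular ATP, stood at 20.9, 33.7, 73.3 and 64.8 FPKM, and P2ry6, the UDP receptor tied to phagocytosis, at 5.89, 8.0, 11.4 and 18.3 FPKM. Nt5e (CD73), which makes adenosine, stood at 15.2, 4.32, 0 and 0 FPKM, in the opposite order.

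Genes of the disease-associated state, a program described in microglia of injured and degenerating brain, were mixed in these untreated cells. Of 20 measured, 11 were at 1 FPKM or more in all 4 libraries and 6 at 100 FPKM or more. The 6 were Apoe, Tyrobp, B2m, Fth1, Timp2, a protease inhibitor, and Cd9, a tetraspanin, which stood at 286, 432, 737 and 745 FPKM with 10.7% of its exon bases shared with Gm26728. Trem2, the lipid receptor on which the program depends, stood at 63.4, 129, 199 and 227 FPKM. Clec7a (dectin-1), which the table does not type as protein-coding, stood at 41.6, 102, 151 and 148 FPKM. Lpl, the lipoprotein lipase, stood at 1.11, 0.788, 0 and 5.58 FPKM, Itgax (CD11c) at 0.0434, 0, 0 and 5.22 FPKM, and Lgals3 (galectin-3) at 0.617, 3.76, 0 and 0 FPKM. Spp1 (osteopontin) stood at 32.0, 29.1, 0.0469 and 305 FPKM, with replicate 4 highest and replicate 3 near 0; 18.8% of its exon bases are shared with Gm42793. Igf1, a growth factor, was at 4.89 and 7.02 FPKM in replicates 1 and 2 and listed at 0 in the others.

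The class II list had the largest spread between libraries of the microglial lists in mean log2(FPKM + 1), at 4.09 ± 1.22 (SD, n = 4), although by the median coefficient of variation of its genes, 114%, it stood below the cytokine list, at 138%. Cd74, the invariant chain, stood at 132, 401, 48.6 and 985 FPKM. H2-Ab1, a class II beta chain, stood at 47.1, 175, 4.51 and 351 FPKM, and H2-Aa, its alpha partner, at 10.7, 28.8, 0.0203 and 146 FPKM. H2-Eb1, another beta chain, stood at 20.2, 52.1, 0 and 152 FPKM. The order of libraries was the same for all 4 genes, with replicate 4 highest, replicates 2 and 1 next and replicate 3 lowest, and it cut across the title numbers. Relative to C1qb, Cd74 stood at 0.0567, 0.0675, 0.00497 and 0.112. H2-DMa, which loads peptides onto class II molecules, did not share the low value of replicate 3, at 35.5, 61.8, 134 and 97.1 FPKM, with 10.4% of its exon bases shared with Brd2. Ciita, the coactivator of class II genes, did not exceed 0.0224 FPKM in any library.

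Genes of border-associated macrophages, which also pass the Iba1 gate, were measured beside class II. Pf4, a platelet and macrophage chemokine, stood at 46.3, 19.4, 16.1 and 172 FPKM. F13a1, a transglutaminase of such macrophages, stood at 7.46, 0.919, 5.01 and 47.4 FPKM, and Mrc1, the mannose receptor CD206, at 5.99, 0.139, 0 and 10.5 FPKM. These 3 genes were highest in replicate 4, whereas Lyve1, a hyaluronan receptor, was highest in replicate 2, at 3.36, 13.9, 12.7 and 7.89 FPKM. Of the 12 genes, 5 were highest in replicate 4, the library with the highest class II levels, and 3 in replicate 1, against 12.2% and 40.6% of all protein-coding genes. This was not particular to the list. Among genes averaging 1 FPKM or more, 21.6% were highest in replicate 4, as were 12 of 24 homeostatic and 15 of 22 lysosomal genes. Only 1 of 10 purine and 1 of 16 pattern recognition genes were. The haemoglobin scavenger Cd163 was at 0.0573 FPKM or less in all 4. In every library 5 of the 12 genes of border-associated macrophages were at 1 FPKM or more. Their list took 0.0291%, 0.0154%, 0.0203% and 0.0861% of the summed protein-coding FPKM. Its part in the class II levels was not tested.

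Blood leukocytes left little RNA. None of 10 monocyte genes was at 1 FPKM or more in every library, against 19.9% of all protein-coding genes. In single libraries 3, 2, 0 and 0 reached it. Replicate 1 was highest for 8 of the 10, against 40.6% of all protein-coding genes. The list took 0.0159%, 0.00374%, 0.000376% and 0.000118% of the summed protein-coding FPKM. Ccr2, the receptor that brings monocytes into tissue, was at 0.0925, 0.0873, 0.0228 and 0 FPKM. Ly6c2, an antigen of blood monocytes, stood at 18.3, 4.28, 0.254 and 0.0995 FPKM. The neutrophil gene S100a9 stood at 0.599, 0, 1.04 and 1.25 FPKM. Of 11 genes of T, NK and B cells, 3 were listed at 0 in all 4 libraries, and Cd79b, a chain of the B cell receptor, was at 8.89 FPKM in replicate 1 and 3.99 FPKM in replicate 3. None of the 8 neutrophil and 11 lymphocyte genes was at 1 FPKM or more in every library.

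Cytokines and chemokines differed widely in level. Of 22, 7 were at 1 FPKM or more in every library, against 19.9% of all protein-coding genes. Another 8 were under 1 FPKM in all 4, against 42.2% of all protein-coding genes. Ccl12, a ligand of CCR2, stood at 65.6, 420.4, 350.3 and 432 FPKM. Ccl5, a chemokine of T cells and macrophages, stood at 11.8, 68.5, 287 and 67.1 FPKM, and replicate 3 stood above the others. Ccl4 (MIP-1 beta) stood at 41.7, 68.2, 33.2 and 17.5 FPKM and Ccl3 (MIP-1 alpha) at 12, 52.0, 63.4 and 13.7 FPKM. For Ccl4 replicates 1 and 2 stood above replicates 3 and 4, whereas Ccl3 did not separate the pairs. Il18 stood at 7.38, 87.0, 2.17 and 17.6 FPKM, highest in replicate 2. Il1b was listed at 0 in all 4 libraries, Il6 was at or under 0.730 FPKM, and Il10 was above 0 only in replicate 2, at 0.150 FPKM.

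The title of the series names GPR84, TNF, IL-1α and the ROCK pathway, whose baseline was measured here. Gpr84, a receptor for medium-chain fatty acids, stood at 8.61, 24.1, 24.3 and 51.6 FPKM, with 39.5% of its exon bases shared with Gm49482. Tnf was at 0.0636, 0.0600, 0 and 0 FPKM, below the floor set at 3 reads in a gene of 1 kb. Il1a stood at 7.13, 0, 0.156 and 48.6 FPKM, with replicate 4 far above the others and 11.2% of its exon bases shared with Gm14023. Rhoa, the GTPase, stood at 36.2, 62.5, 69.5 and 76.8 FPKM. Its kinases Rock1 and Rock2 stood at 4.83 to 11.3 FPKM and 4.03 to 12.7 FPKM.

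Immediate early genes, which dissociation and handling can induce, were high in the library that also had the most retinal RNA. Fos stood at 462, 163, 15.0 and 146 FPKM, and Jun, its partner in the factor AP-1, at 216, 69.7, 5.38 and 41.8 FPKM. Dusp1, a phosphatase of the same response, stood at 239, 83.5, 0.0233 and 62.7 FPKM, and Egr1 at 119.5, 91.6, 0 and 40.7 FPKM. For each of these 4 genes replicate 1 was highest and replicate 3 lowest. Over the list of 23, replicate 1 was highest for 17 (73.9%), against 8866 of all 21856 protein-coding genes (40.6%). Its mean log2(FPKM + 1) was 5.07, 3.75, 2.21 and 3.64. Atf3, a stress-induced repressor, went another way, at 20.5, 0, 60.2 and 56.9 FPKM.

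Proliferation genes were low. Pcna, the clamp of DNA replication, was the sole gene of 16 in the cell cycle list at 1 FPKM or more in every library, at 21.4, 26.6, 4.47 and 41.0 FPKM. Of all protein-coding genes, 19.9% were at that level in every library. In single libraries 8, 5, 6 and 4 of the 16 reached it. Mki67, the proliferation antigen Ki-67, was at 0.0782 FPKM or less. Genes of the Y chromosome were found in all 4 libraries, with Eif2s3y at 18.0, 15.6, 13.5 and 9.61 FPKM and Ddx3y at 12.7, 8.72, 12.8 and 10.8 FPKM.

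RNA of rods was present in every library and differed between them more than that of the microglia markers and homeostatic genes. The median coefficient of variation was 87.5% for the rod list, 50.6% for the markers and 54.0% for the homeostatic list. It was larger for 3 microglial lists, at 114% for class II, 138% for cytokines and 97.8% for pattern recognition. Gnat1, the alpha subunit of rod transducin, stood at 4958, 2476, 1069 and 1132 FPKM. Pde6g, the inhibitory subunit of the rod phosphodiesterase, stood at 1267, 618, 287 and 240.0 FPKM. Sag, the rod arrestin whose promoter is shown above, stood at 545, 256, 65.3 and 121 FPKM. Replicates 1 and 2 were above replicates 3 and 4 for each of these 3 genes, and replicate 1 was highest. The FPKM of Gnat1 stood at 13.1, 5.28, 0.935 and 0.713 of that of Csf1r.

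All 22 rod genes were highest in replicate 1, and 21 were higher in both replicates 1 and 2, against 8866 (40.6%) and 8189 (37.5%) of 21856 protein-coding genes. In all, 18 were at 1 FPKM or more in every library and 9 at 100 FPKM or more. The list took 6.26%, 2.48%, 1.06% and 1.02% of the summed protein-coding FPKM, or 2.71 ± 2.47% (SD, n = 4), and 1.52% on average without replicate 1. By contrast, 3 of 3 marker genes and 21 of 24 homeostatic genes were lower in both replicates 1 and 2. So were 6 of 6 Fc receptor and 19 of 22 lysosomal genes, against 7.19% of all protein-coding genes. The order was not particular to microglial genes, since 11 of 18 widely used cell genes (61.1%) showed it. Outside the lists, 637 of 1920 genes at a mean of 20 FPKM or more did. Other myeloid lists showed that order in part. It held for 7 of 9 class I genes, 10 of 16 growth factor and inhibitory receptors and 6 of 12 complement genes. For 4 of 10 purine and 2 of 10 class II genes it held too, and for 0 of 22 cytokine genes. The part of rod RNA in the levels of the microglial genes was not tested.

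Cone genes were largely those of replicate 1. Opn1sw, the short-wave opsin, stood at 931, 13.1, 8.16 and 0.00710 FPKM, and Opn1mw, the middle-wave opsin, at 374, 0, 0.445 and 0.0465 FPKM. Arr3, the cone arrestin, stood at 147, 5.34, 8.66 and 0.0309 FPKM. The proportion of cone to rod RNA was not fixed, since Opn1sw stood at 0.188, 0.00528, 0.00764 and 6.28e-06 of Gnat1; 15.5% of the exon bases of Opn1sw are shared with Calu. Gngt2, the cone transducin gamma subunit, was an exception, at 94.0, 101.3, 169 and 124 FPKM, and 12.5% of its exon bases are shared with Abi3. Of 12 cone genes, 11 were highest in replicate 1, against 40.6% of all protein-coding genes. In every library, 2 of the 12 were at 1 FPKM or more, against 19.9% of all protein-coding genes.

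Bipolar cells and Mueller glia were seen mainly in replicates 1 and 2. Grm6, the glutamate receptor of ON bipolar cells, stood at 22.6, 16.9, 5.62 and 0.0134 FPKM, with 11% of its exon bases shared with Gm12660. Rlbp1, the retinaldehyde-binding protein of Mueller glia, stood at 426, 204, 66.8 and 58.6 FPKM, Glul, their glutamine synthetase, at 322, 139.8, 63.9 and 51.9 FPKM, and Clu, the secreted chaperone clusterin, at 475, 421, 17.1 and 99.4 FPKM. Each of these 4 genes was higher in both replicates 1 and 2. The same held for 12 of 13 bipolar and 12 of 13 Mueller genes, against 37.5% of all protein-coding genes. The Mueller list took 0.783%, 0.370%, 0.0568% and 0.0744% of the summed protein-coding FPKM. Gfap, a filament of astrocytes and reactive Mueller glia, was listed at 0 in all but replicate 2, at 0.0699 FPKM.

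Vascular RNA was measured in replicates 1 and 2 and was nearly absent from the values of the other 2 libraries. Of 14 genes of endothelial cells and pericytes, 14, 8, 0 and 1 were at 1 FPKM or more. Cldn5, the tight-junction claudin of endothelium, stood at 202, 71.9, 0 and 0 FPKM, Kdr, the VEGF receptor, at 51.7, 22.5, 0 and 0 FPKM, and Rgs5, a marker of pericytes, at 62.6, 17.5, 0 and 0 FPKM. Red cell RNA was confined to replicate 1 at any sizeable level. Hba-a1, an adult alpha globin, stood at 173, 1.42, 0.428 and 0.268 FPKM, and Hbb-bs, a beta globin, at 44.7, 1.76, 0.679 and 0.260 FPKM. The globin genes have near-identical copies, so their separate values are uncertain.

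Other neurons and the tissues around the retina contributed little at this depth. No gene of the ganglion cell list of 14 was at 1 FPKM or more in every library, against 19.9% of all protein-coding genes. Pou4f2 (BRN3B) and Nrn1 were listed at 0 in all 4. In single libraries, 6, 4, 5 and 2 of the 14 reached 1 FPKM. The ganglion cell list took 0.0148%, 0.00844%, 0.0239% and 0.00501% of the summed protein-coding FPKM, highest in replicate 3. In the amacrine and horizontal list of 13, Tfap2a and Lhx1 were listed at 0 throughout, and Calb2 (calretinin) stood at 1.26, 14.6, 20.9 and 6.0 FPKM. In the list of pigment epithelium and pigment cells, 8 of 10 genes were under 1 FPKM in every library, and 9 of 10 lens genes were. Of all protein-coding genes, 42.2% were. Taken over all lists of retinal cells, 127 genes took 8.34%, 3.14%, 1.24% and 1.17% of the summed protein-coding FPKM, or 3.47 ± 3.37% (SD, n = 4), and 1.85% on average without replicate 1. The 181 genes of the microglial lists took 13.0%, 28.0%, 37.7% and 38.3%, or 29.3 ± 11.8% (SD, n = 4).

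**Figure D3:**
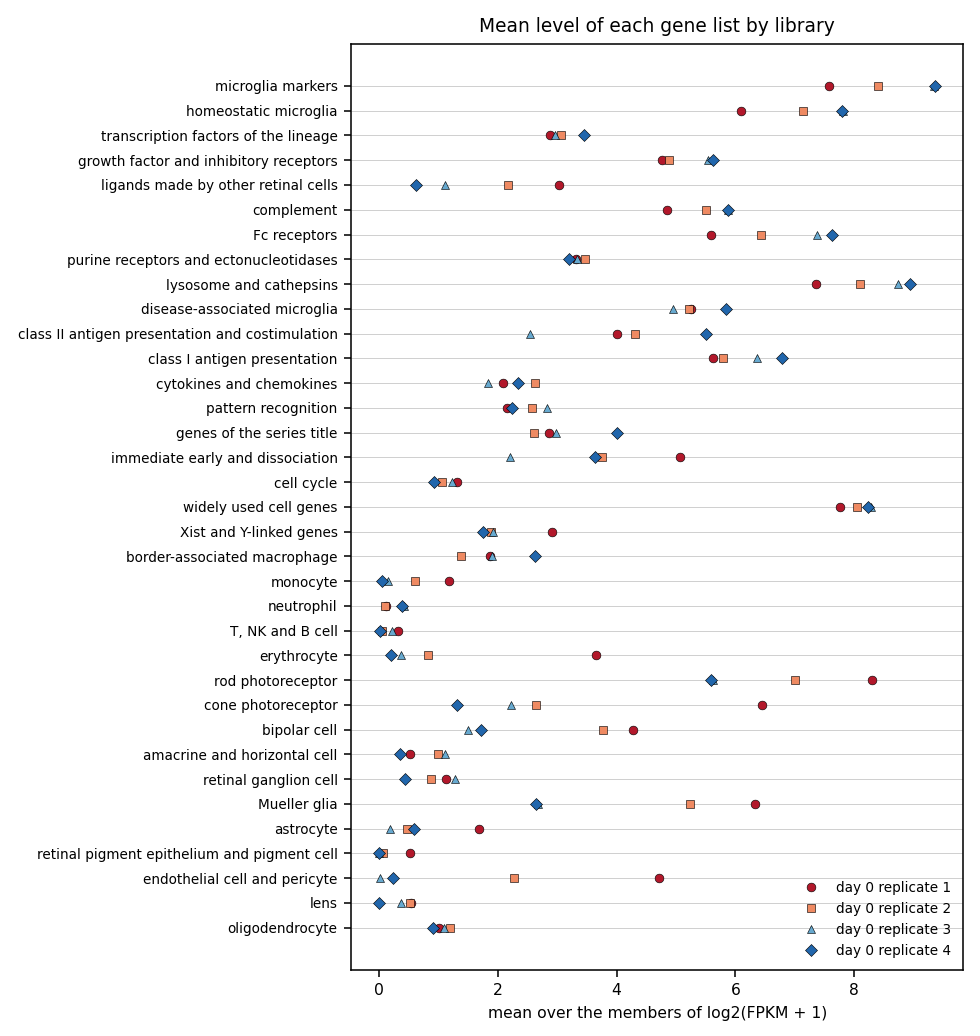
Mean log2(FPKM + 1) over the members of each of the 35 gene lists, with 1 point per day 0 library. Replicate 1 lies left of the others for the markers, homeostatic, Fc receptor and lysosome lists and right of them for rods, cones, Mueller glia, vessels and erythrocytes.

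**Figure D4:**
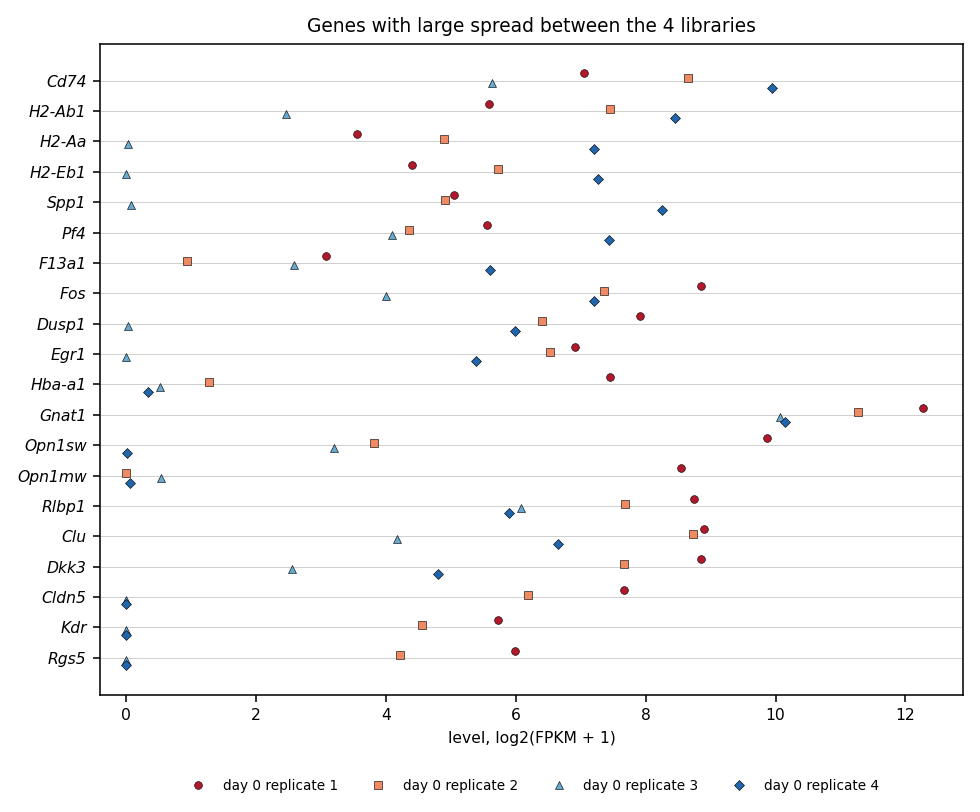
Levels of 20 named genes with a large spread, as log2(FPKM + 1), with 1 point per day 0 library; points at 0 are genes listed at 0 FPKM or near it. The class II genes are highest in replicate 4, the immediate early genes and the genes of other retinal cells, vessels and red cells in replicate 1.

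The breadth of detection differed with these shares. At least 1 FPKM was reached by 11753, 8531, 6474 and 6772 protein-coding genes, although the libraries of replicates 3 and 4 had more reads. In all 4 libraries, 4355 of 21856 did (19.9%), and 9229 did in none. A further 2271 genes reached it in replicate 1 alone and 1623 in replicates 1 and 2 only, against 47 in replicates 3 and 4 only. At 100 FPKM or more the order was reversed, with 369, 395, 446 and 444 genes. The 100 highest genes held 30.2%, 48.0%, 51.5% and 51.1% of the summed protein-coding FPKM, and 45 genes were among the 100 highest in all 4 libraries.

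Isolated low values were more frequent in replicates 3 and 4. Of the genes at 10 FPKM or more in each of the other 3 libraries, 0 of 2129 were under 0.1 FPKM in replicate 1, 13 of 2271 (0.572%) in replicate 2, 114 of 2343 (4.87%) in replicate 3 and 100 of 2301 (4.35%) in replicate 4. At 50 FPKM or more in the other 3 libraries, 1 of 513 genes was under 0.1 FPKM in replicate 3 and none was in the other libraries.

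The spread between libraries depended on the level. The coefficient of variation, the SD as a percent of the mean, had a median of 113% for 6708 genes with means of 1 to 10 FPKM, of 52.9% for 3461 genes at 10 to 100 FPKM and of 40% for 377 genes at 100 to 1000 FPKM. Above 1000 FPKM it was 49.1% for 29 genes. At least 1 value of 0 was found in 50.7% of genes in the lowest class and in none at 100 FPKM or more. The rank correlation across the 10575 genes averaging 1 FPKM or more was 0.662 for replicates 1 and 2 and 0.602 for replicates 3 and 4, and between 0.502 and 0.565 for pairs with different title numbers. Across the 406 genes at 100 FPKM or more it was 0.684 and 0.846 for the same pairs. Replicate 2 stood at 0.634 and 0.644 with replicates 3 and 4, nearly as high as with replicate 1. Replicate 1 stood at 0.253 and 0.246 with replicates 3 and 4. At these levels replicate 1 thus stood apart from replicates 3 and 4, and replicate 2 did not. Genes are not independent replicates, so these correlations describe the libraries.

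**Figure D5:**
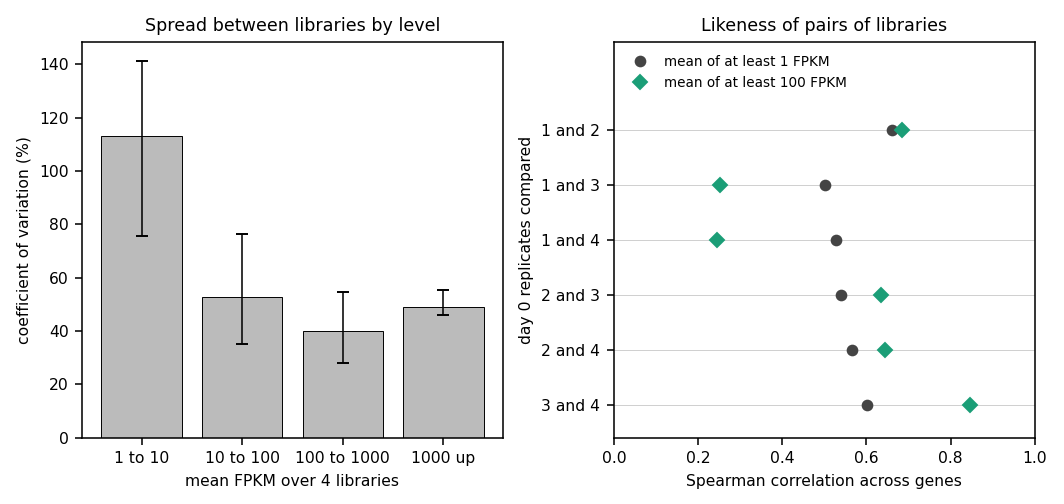
Left, the median coefficient of variation over the 4 day 0 libraries in classes of mean FPKM, with error bars from the first to the third quartile of genes. Right, the Spearman correlation across genes for each pair of libraries; the highest is 0.846 for replicates 3 and 4 among genes at 100 FPKM or more, and the lowest is 0.246 for replicates 1 and 4.

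Examples are given from the most even genes at a mean of 100 FPKM or more. Rab11a, a GTPase of recycling endosomes, stood at 100.3, 99.4, 102 and 104 FPKM, a coefficient of variation of 1.97%. Skp1a, a subunit of ubiquitin ligases, stood at 169, 196, 200.2 and 188 FPKM, and Cox8a, a subunit of cytochrome oxidase, at 482, 504, 448 and 422 FPKM. For these genes no library stood apart. Among genes in wide use as references, Gapdh stood at 225, 164, 158 and 119.8 FPKM and Actb at 209, 373, 755 and 763 FPKM, so that the libraries stood in opposite orders for the pair.

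Outside the lists, 6 of the 10 highest genes were lower in replicates 1 and 2 than in replicates 3 and 4. The same order held for 637 of 1920 genes outside the lists at a mean of 20 FPKM or more. It also held for 11 of 18 widely used cell genes (61.1%). Itm2b, a membrane protein of the amyloid precursor pathway, stood at 1134, 1843, 2581 and 2674 FPKM, Cd81, a tetraspanin, at 496, 862, 1561 and 1827 FPKM, and Cd53, a tetraspanin of leukocytes, at 181, 477, 786 and 916 FPKM. Selenop, the selenium carrier, stood at 442, 1323, 1549.8 and 1796 FPKM and shares 15.4% of its exon bases with Ccdc152. Bsg (basigin), a membrane protein that photoreceptors and glia use, followed the rod order, at 1224, 606, 302 and 272 FPKM.

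Further genes outside the lists separated the libraries by title number. Of 1920 genes outside the lists, at a mean of 20 FPKM or more, 373 were higher and 637 lower in replicates 1 and 2 than in replicates 3 and 4. The 10 with the largest difference on the higher side were Itm2a, Ly6c1, Efemp1, Igfbp7, Ly6a, Cnn3, Nap1l5, Id1, Mlc1 and S1pr1. Itm2a, a membrane protein, stood at 208, 162, 0 and 0 FPKM, and Ly6c1, an antigen of endothelium, at 225, 58.1, 0.0576 and 0.0542 FPKM. Mlc1, a membrane protein of astrocytes and Mueller glia, stood at 119.6, 33.5, 0 and 0 FPKM. On the other side, Hcar2, a receptor for nicotinic acid and ketone bodies in macrophages, stood at 0, 0, 34.1 and 46.1 FPKM. Igsf6, an immunoglobulin-superfamily gene, stood at 3.83, 20.4, 47.7 and 98.7 FPKM. The others of the 10 on that side were Mapkapk2, Bet1, Rtp4, Lefty1, Snx4, Seh1l, Nelfe and Fgd2. Of the exon bases of Cnn3 17.7% and of those of Rtp4 13.9% are shared with other genes. With 2 libraries per number, these orders are descriptions of 4 libraries, and the title number, the library depth and the share of retinal RNA cannot be told apart.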

How the data were processed

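Libraries of sorted retinal cells were made from amplified cDNA by tagmentation (Nextera XT, without marking of strand), per the labels' protocols. The deposited table gives FPKM per gene. Per the submitters' processing notes, the authors used STAR 2.7.2b, featureCounts 1.6.1 and the build GRCm38.p6 (mm10). The counting of reads that fall on overlapping genes or map to several places is not stated in the sources used here. FPKM times the deposited length gave values in steps of 0.01 read (tolerance of 0.02 steps), of which 47.5% to 61.4% of those above 0 were whole reads, and from these the reads per library were recovered.

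The 4 day 0 columns of 16 were used. Levels, ranks, means and SD (n = 4) were computed with Python 3.11.15, pandas 2.3.3 and scipy 1.17.1 over 21856 protein-coding genes, with log2(FPKM + 1) for list means. There is no second group, so no test was made. Shares of exon bases on overlapping genes came from the GENCODE annotation and are given from 10%. Promoters came from RefSeq. The 35 gene lists and the markers were chosen with earlier results of these data known. Named genes were the 3 markers, the 20 with the smallest mean rank, up to 6 members per microglial list and 4 per other list by mean, defining genes of cell types, and the 10 most and least even, highest outside the lists, and most different by title number. Other list members named in the text were chosen after their values were seen. The scripts were tested on simulated data. Some genes that the named-gene rule takes are not reported here.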

Additional observations from a re-analysis of the deposited data

Results flagged for a closer look

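A gap between the extreme library and the next that exceeds Dixon's 95% limit for 4 values was found for 22 of 194 genes (11.3%) and for 3 of 41 summaries. Chance flags about 1 in 20 independent groups of values, but some of these genes were named for their values in the same 4 libraries and genes of a library vary together, so the share is not read against it. Replicate 1 was the extreme library for 17 of the 22 genes and for all 3 summaries, replicate 4 for 3 genes and replicate 3 for 2.

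In replicate 1 the 100 highest genes held 30.2% of the summed protein-coding FPKM, the next lowest share being 48.0%. Its mean log2 level was 2.91 for the Xist and Y-linked genes, where Uty stood at 4.06 FPKM and Kdm5d at 1.44 FPKM, and 0.525 for pigment epithelium and pigment cells, where Mlana stood at 3.55 FPKM and Rgr at 2.27 FPKM. Photoreceptor genes apart in this library were Opn1sw (931 FPKM), Opn1mw (374 FPKM), Rbp3 (814 FPKM), which carries retinoids between photoreceptors and epithelium, and Impdh1 (279 FPKM), an enzyme of guanine nucleotide synthesis. The globins Hba-a1 (173 FPKM), Hba-a2 (183 FPKM), Hbb-bs (44.7 FPKM) and Hbb-bt (15.3 FPKM) were apart too, as were the glial genes Slc1a2 (18.8 FPKM), Aldh1l1 (9.31 FPKM, with 13.4% of its exon bases on other genes) and Gja1 (2.92 FPKM) and the integrin gene Itga4 (1.02 FPKM). Ccdc152, which overlaps Selenop, was apart on the low side, at 226 FPKM.

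In replicate 4, F13a1 (47.4 FPKM), Il1a (48.6 FPKM) and the class I gene H2-T23 (103 FPKM) were above the other libraries, and in replicate 3, Calb1 (8.60 FPKM), a calcium-binding protein of horizontal cells, and Mcm2 (12.4 FPKM), a subunit of the replicative helicase, were. What sets these values apart was not tested.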

How the results depend on the processing

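Of 67 values of the 8 main summaries under alternatives, 59 moved by less than the spread between libraries or, for counts, by less than 1.5 times. Many of the 59 could not have moved. Shares stay the same when each library is multiplied by its own factor. A mean of library values cannot move by its SD when a library of 4 is left out. The number 59 is therefore no measure of stability. Rescaling each library to one fixed sum over protein-coding genes, above their mean sum of 320137 FPKM, raises every level by construction, and moved the mean log2 level of the 3 markers to 10.3, that of the homeostatic list to 8.82 and the median deviation of a library from the mean of the 4 from 0.773 to 1.02. With equal sums at the original mean level, the mean FPKM of Csf1r was 859 against 894. That deviation was 1.27 with a pseudocount of 0.1, 0.530 with a minimum mean of 10 FPKM and 0.269 with no filter. The median rank correlation, 0.552, became 0.642 as Pearson's r of log2 values and 0.687 with no filter. Leaving out a library in turn gave 4389 to 5537 genes at 1 FPKM or more in all that remained, 8.44 to 9.04 for the markers, 7.01 to 7.58 for the homeostatic list, 43.1% to 50.2% for the 100 highest genes, 0.513 to 0.564 for the correlation and 0.704 to 0.811 for the deviation. The share of the rod list ranged from 1.52% to 3.27% and that of all retinal lists from 1.85% to 4.24%, lowest without replicate 1. Of 1326 values of 221 named genes under alternatives, 8 moved by more than 1 SD. Leaving out a library of 4 cannot move a mean by 1 SD, so those values could not count as moved. The low number is therefore no measure of stability. No paired analysis was possible because there is a single group and nothing was compared. Low genes are limited by depth, and values of 0 cannot be told from failed estimates.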

Other observations

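Genes of class I presentation and of pattern recognition were measured in the same 4 libraries. Of 9 class I genes, 7 were at 1 FPKM or more in every library. H2-D1, a classical heavy chain, stood at 424, 642, 1061 and 1463 FPKM and H2-K1, its counterpart, at 94.6, 81.8, 123 and 196 FPKM; heavy-chain genes are alike in sequence, so their separate levels are uncertain. Replicate 4 was highest for both. Tap1, the peptide transporter, was low, at 1.80, 7.27, 0.0740 and 0.119 FPKM.

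Of 16 pattern recognition genes, 5 were at 1 FPKM or more in every library. Ly86, which encodes the MD-1 partner of CD180, stood at 135, 394, 574 and 612 FPKM, while Cd180 itself stood at 1.27, 6.73, 0.325 and 0.548 FPKM. Cd14, the co-receptor for lipopolysaccharide, stood at 32.8, 52.2, 176 and 157 FPKM, while Tlr4, its signalling partner, stood at 0.807, 16.1, 3.99 and 0.157 FPKM. In both cases the second gene was the lower one in each library, with the smaller gap for Tlr4 in replicate 2. Clec7a, the beta-glucan receptor dectin-1, carries the type polymorphic pseudogene in the table and so is outside the protein-coding ranks; it stood at 41.6, 102, 151 and 148 FPKM. Xist, the RNA of the inactive X chromosome, was at 0.0162 FPKM or less in every library.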
